A study of Mus musculus with 8 samples.

Results

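Mecom, Hlf, Prdm16, Mllt3, Meis1, Gfi1 and Zfp521 encode nuclear regulators that blood-forming stem cells use to renew themselves. They were taken by gene symbol from the annotated expression table, and each gene was read from its brightest probe set. All 7 were found among the 30918 genes with a symbol, and 8 probe sets carry their names, since Mecom has 2. The cells were multipotent progenitors (MPPs), which lie just below the stem cell, sorted from mouse marrow by an LSK CD48- CD150- gate after enrichment for c-Kit. The 4 Elektra samples (Slfn2 elektra/elektra) carried 2 copies of Elektra, a Slfn2 allele with loss of function, and the 4 control samples were wild-type littermates (Slfn2 wt/wt). All mice had a C57Bl/6 background and were untreated, and no age is given in the labels. The labels put bones of 2 mice of 1 genotype in each sample, while the series text speaks of 4 mice per genotype, so how many animals stand behind each genotype is not settled here. The allele is constitutive, so every cell of the donor, the marrow niche included, carried it.

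Stem cells are held between rest, self-renewal and differentiation by a small set of transcription regulators, most of which decline as cells commit. Mecom and Prdm16 are related zinc finger proteins with a PR domain, and the loss of either depletes stem cells. Hlf, a PAR bZIP factor, marks the most immature blood cells, and Meis1, a TALE homeodomain factor, binds DNA with Pbx and Hox proteins. Mllt3 (AF9) reads acylated histones and bridges to the DOT1L methyltransferase and the elongation machinery. Gfi1 is a repressor that restrains stem cell division and later directs neutrophil formation, and Zfp521 is a zinc finger cofactor that blocks the B cell factor Ebf1. The comparison asks whether these regulators differ between progenitors with and without functional Slfn2.

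The sequences below show promoter stretches of the members for which at least 3 of 4 Elektra arrays lay below every wild-type array, as far as RefSeq's promoter table holds them. The share of all genes that meet this rule was not counted here, so the rule only chooses what is shown. RefSeq's promoter table holds 6 of the 7 genes, the entry not found being Zfp521. All are on build GRCm38.p6, minus strand, written 5′ to 3′ in gene direction, and capitals mark a match to the ETS core CCGGAA, read on either strand, or to the CCAAT box. The Meis1 and Prdm16 windows overlap the RefSeq record of their own gene, in full or in part, so only 30 bases around a match are given. The Hlf window ends where its gene record begins and is given over 250 bases.
Meis1, chr11:19018970-19018999, ETS core read on the other strand: ctgttatggccaccactacTTCCGGgttct
Meis1, chr11:19019006-19019035, CCAAT box: acttgctgcagcCCAATgcattgtgtaaga
Prdm16, chr4:154636954-154636983, CCAAT box: tcggagagccccCCAATcccgcgccgaggc
Hlf, chr11:90390918-90391167, ETS core: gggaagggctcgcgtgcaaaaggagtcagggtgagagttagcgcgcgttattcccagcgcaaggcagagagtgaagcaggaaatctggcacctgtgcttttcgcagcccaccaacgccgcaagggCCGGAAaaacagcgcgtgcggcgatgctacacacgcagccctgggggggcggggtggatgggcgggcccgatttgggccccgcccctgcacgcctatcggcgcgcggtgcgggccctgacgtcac

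Meis1 and Hlf shared the ETS core, which 12.0% of all 32851 RefSeq promoter windows of the same length hold on either strand. The CCAAT box stood in 5 of the 9 windows of the members, those of Meis1 and Prdm16 and others of Mecom and Mllt3 among them, and in 33.8% of all windows. The windows of Hlf, Prdm16 and Meis1 were rich in G and C, at 67.2%, 62.4% and 59.6% against a median of 52.4% over all windows. They held 26, 22 and 13 CpG pairs, where the median window held 6. This was not particular to them. The windows of the other members ran from 45.2% with 4 CpG pairs to 69.2% with 23, both of Mllt3. The Gfi1 window outside its gene record had 59.2% and 13 pairs. None of the 9 windows of the members held the PAR bZIP palindrome TTANNTAA, found in 5.43% of all windows, or the TATAAA box, found in 12.4%. The MEIS core TGACAG stood in 1 window each of Mecom and Mllt3 and in 15.9% of all windows. These are matches of letters in short windows and were set against no binding data.

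Levels are log2 intensities from the authors' RMA processing, and a difference is Elektra minus wild type with the SE of limma's fit. Medians of the arrays ran from 2.02 to 2.13, and over 34390 probe sets the least alike arrays correlated at 0.966. Elektra replicate 2 stood apart, its upper quartile being 3.63 where the other arrays had 3.80 to 3.83, and a principal component with 28.9% of the variance set it off from the rest. Elektra replicate 3 and wild type replicate 4 carried strong immunoglobulin signal: Igh-V11 read 9.75 and 8.95 there and at most 4.71 elsewhere. Slfn2 was dim, at 2.10 ± 0.08 (Elektra) and 2.08 ± 0.31 (wild type), and cannot check the labels, since Elektra is known to alter the protein sequence. Of the sort markers, Kit and Ly6a (Sca-1) lay at the 99.6th percentile of all genes. Of the markers the gate selects against, Slamf1 (CD150) lay at the 39.0th and Cd48 at the 75.4th. Cd34, which the stated gate does not use, lay at the 99.4th. Kit differed by -0.20 between genotypes and Ly6a by 0.36, at unadjusted limma p of 0.0757 and 0.0624. Flt3, also not used by the stated gate, lay at the 98.2nd percentile and differed by -0.34, with separate groups. Its unadjusted limma p was 0.00904 and its adjusted p 0.884. Of the 6 sort markers 3 were lower and 3 higher in Elektra.

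Of the 7 regulators, 5 had lower and 2 higher values in Elektra progenitors, and none passed limma at an adjusted p of 0.05. Their adjusted p-values ran from 0.884 to 0.936, as 0 of 30918 genes passed (0% of all genes). At an unadjusted limma p of 0.05, 3 regulators were past the line, all lower (Meis1, Zfp521 and Prdm16), where 5.5% of all genes were past it in either direction and 2.87% were past it and lower. The median difference of the 7 was -0.15, beside 0.01 for all genes and -0.02 for the genes above the median level. As the genes were chosen with earlier results of these arrays known, these counts are a description and carry no test. All 7 lay above the median level, from the 68.6th percentile (Gfi1) to the 99.3rd (Meis1). No detection call was used here to set these levels against background. Lower values at any p were found for 46.1% of all genes and for 54.3% of the genes above the median level, where all 7 lie. In these bulk samples fewer cells of a type and less RNA per cell cannot be told apart.

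**Figure D1:**
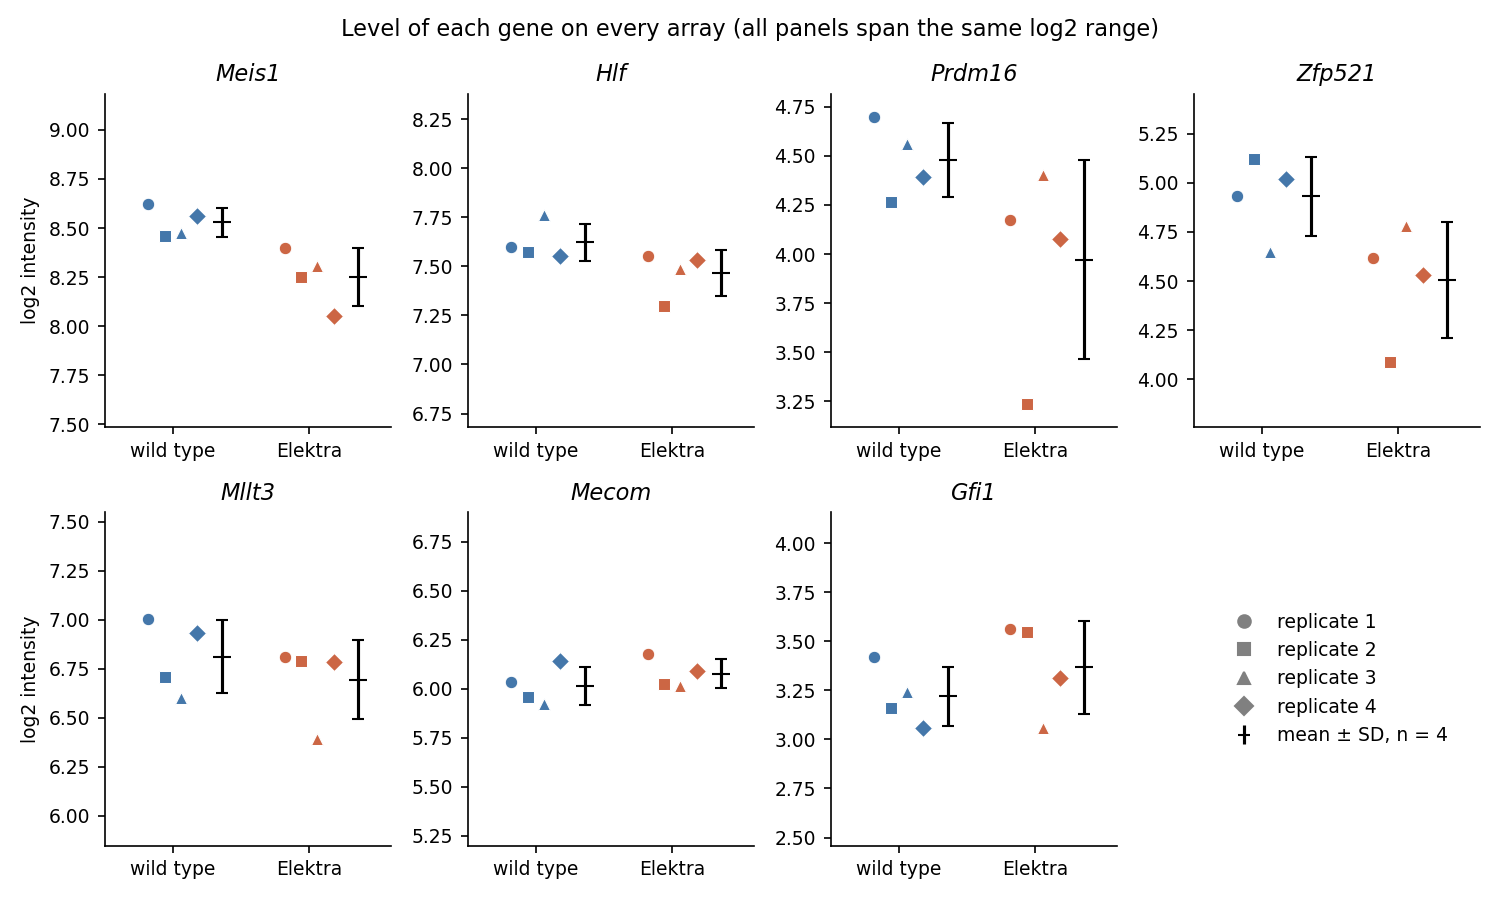
Log2 intensity of each of the 7 genes on every array, wild type in blue and Elektra in orange, with replicates 1 to 4 as symbols and the mean ± SD (n = 4) in black; every panel spans the same height. The groups do not overlap for Meis1 alone, and the lowest points of Prdm16 (3.24), Zfp521 (4.09) and Hlf (7.30) are all Elektra replicate 2.

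Meis1 was the regulator whose genotypes did not overlap in the annotated values as deposited. It read 8.40, 8.25, 8.31 and 8.05 in Elektra replicates 1 to 4 and 8.62, 8.46, 8.48 and 8.56 in wild type replicates 1 to 4. Every Elektra array lay below the lowest wild-type array, a separation in the lower direction that 1.37% of all genes showed. The Elektra mean was 8.25 ± 0.15 and the wild-type mean 8.53 ± 0.08 (SD, n = 4), which puts the difference at -0.28 (SE 0.10, 95% interval -0.50 to -0.05), or 1.21 times higher in wild type. The unadjusted limma p was 0.0220 and the adjusted p 0.884, and the authors' deposited table gives an unadjusted p of 0.0159. The lowest array was Elektra replicate 4 and not replicate 2, and the difference without Elektra replicate 2 was -0.28. The unadjusted limma p was 0.0636 without Elektra replicate 4 and 0.0584 without wild type replicate 1. It was 0.0622 without the arrays with immunoglobulin signal and 0.0860 without these and Elektra replicate 2. The groups stayed apart with quantile normalization, with median centring and in the series table. Leaving out arrays cannot make groups overlap that are apart, so those refits carry no information on the separation. Meis1 was also tightly measured, its spread within genotypes of 0.118 lying at the 9.63 percentile of genes above the median level.

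Hlf came close to the same picture on a smaller scale. Its values were 7.55, 7.30, 7.49 and 7.53 in Elektra and 7.60, 7.57, 7.76 and 7.55 in wild type, in replicate order. Elektra replicate 1 and wild type replicate 4 were nearly level and made the groups overlap. The other 3 Elektra arrays lay below every wild-type array. The difference was -0.15 (SE 0.10), its 95% interval from -0.37 to 0.07 included 0, and the unadjusted limma p was 0.149. Without Elektra replicate 2 the difference was -0.10. With quantile normalization of all 8 arrays the Hlf groups were apart as well. With median centring and in the series table they overlapped.

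Prdm16 had the widest difference and the widest spread of the 7. Elektra replicates 1 to 4 gave 4.17, 3.24, 4.40 and 4.08, and wild type replicates 1 to 4 gave 4.70, 4.27, 4.56 and 4.39. Of the Elektra arrays 3 lay below every wild-type array, and replicate 3 lay inside the wild-type range. The Elektra mean was 3.97 ± 0.51 and the wild-type mean 4.48 ± 0.19 (SD, n = 4), which puts the difference at -0.51 (SE 0.22, 95% interval -1.01 to -0.01). The unadjusted limma p of 0.0472 became 0.0761 without Elektra replicate 2, and the difference then was -0.26. That p was 0.112 without wild type replicate 1. The authors' deposited table gives 0.110, from a test that uses the spread of each gene alone. The spread of Prdm16 within genotypes was at the 87.6th percentile of genes above the median level.

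Mecom, the close relative of Prdm16, lay the other way in its brightest probe set. That probe set read 6.18, 6.02, 6.02 and 6.09 in Elektra and 6.04, 5.96, 5.92 and 6.14 in wild type. The arrays of the genotypes were interleaved, with a difference of 0.06 (SE 0.09). On leaving out 1 array it ran from 0.0291 (without Elektra replicate 1) to 0.105 (without wild type replicate 4). The 95% interval from -0.14 to 0.27 bounds the difference of this probe set more narrowly than that of any other member. Its spread of 0.0865 lay at the 3.07 percentile of genes above the median level. The second Mecom probe set was dimmer, at 3.34, 2.79, 3.10 and 3.14 in Elektra and 3.18, 3.31, 3.01 and 3.83 in wild type. It differed by -0.24 (SE 0.18), so the sign for Mecom turned to -0.0867 when both probe sets were averaged. Which Mecom transcripts each of them reads was not analysed here.

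Zfp521, like Prdm16, was lowest in Elektra replicate 2. Among the wild-type arrays the order differed, as replicate 2 was lowest for Prdm16 and highest for Zfp521. The values of Zfp521 were 4.62, 4.09, 4.78 and 4.53 in Elektra and 4.93, 5.12, 4.65 and 5.02 in wild type. Only wild type replicate 3 fell within the Elektra range, and 3 Elektra arrays lay below every wild-type array. The difference was -0.43 (SE 0.16, 95% interval -0.78 to -0.07), with an unadjusted limma p of 0.0239 and a deposited p of 0.0552 in the authors' deposited table. Without Elektra replicate 2 it was -0.29, at an unadjusted limma p of 0.0543. Leaving out wild type replicate 2 gave a p of 0.0683 by limma, and leaving out replicate 4 gave 0.0561. Without the arrays with immunoglobulin signal and Elektra replicate 2 the limma p was 0.0845.

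Mllt3 and Gfi1 showed no difference beyond their spread. Mllt3 read 6.81, 6.79, 6.39 and 6.79 in Elektra and 7.00, 6.71, 6.60 and 6.93 in wild type. The lowest reading was Elektra replicate 3, one of the arrays with immunoglobulin signal, and the other Elektra arrays lay inside the wild-type range. The difference of -0.12 (SE 0.13) had an unadjusted limma p of 0.397, and leaving out 1 array gave from -0.19 (wild type replicate 3) to -0.0171 (Elektra replicate 3). Gfi1 read 3.56, 3.55, 3.06 and 3.31 in Elektra and 3.42, 3.16, 3.24 and 3.06 in wild type. Its highest values were Elektra replicates 1 and 2, and its lowest, nearly level, were Elektra replicate 3 and wild type replicate 4, the arrays with immunoglobulin signal. The difference was 0.15 (SE 0.13) at an unadjusted limma p of 0.294, and it was 0.25 without Elektra replicate 3, 0.0856 without Elektra replicate 1 and 0.0905 without Elektra replicate 2.

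**Figure D2:**
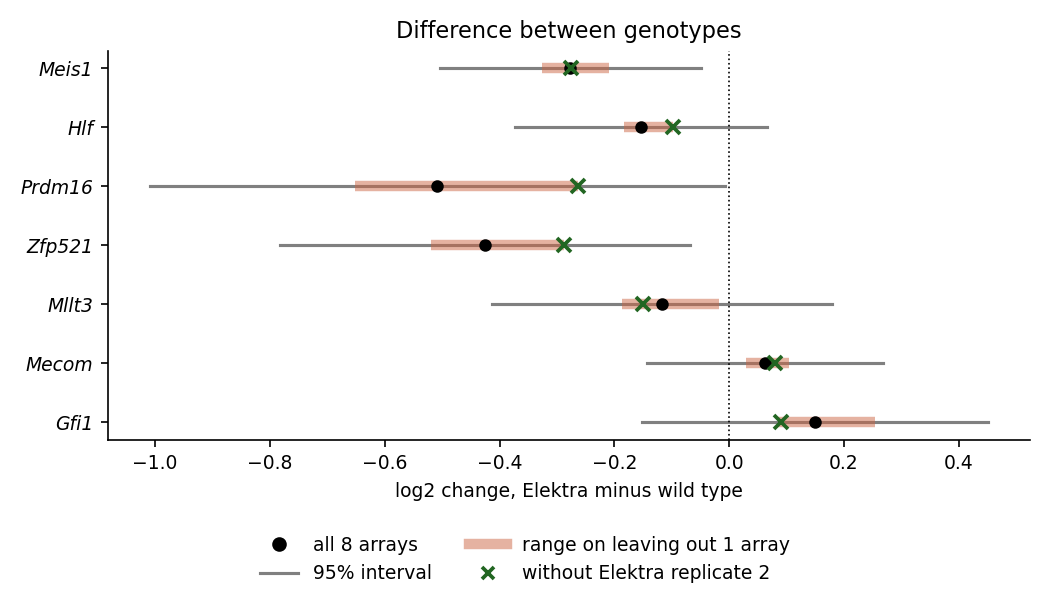
Log2 difference between genotypes for each gene (black points), with the 95% interval of the limma fit (grey lines), the range on leaving out 1 array (orange bars) and the value without Elektra replicate 2 (green crosses). The intervals of Meis1 (-0.50 to -0.05), Zfp521 (-0.78 to -0.07) and Prdm16 (-1.01 to -0.01) lie below 0 before adjustment over all genes, and Prdm16 moves the most without Elektra replicate 2.

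Seen by array, the regulators did not go up and down as 1 block. Elektra replicate 2 held the lowest value of 3 of them (Hlf, Prdm16 and Zfp521), Elektra replicate 3 that of 2 (Mllt3 and Gfi1), Elektra replicate 4 that of Meis1 and wild type replicate 3 that of Mecom. Wild type replicate 1 held the highest value of 3 (Prdm16, Mllt3 and Meis1). Relative to each gene's mean over the 8 arrays, the median of the 7 was 0.22 in wild type replicate 1 and 0.17 in wild type replicate 4. It was -0.14 in Elektra replicate 2 and between -0.06 and 0.03 in the other 5 arrays. The part of the array-wide shift of Elektra replicate 2 in its low values was not tested.

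**Figure D3:**
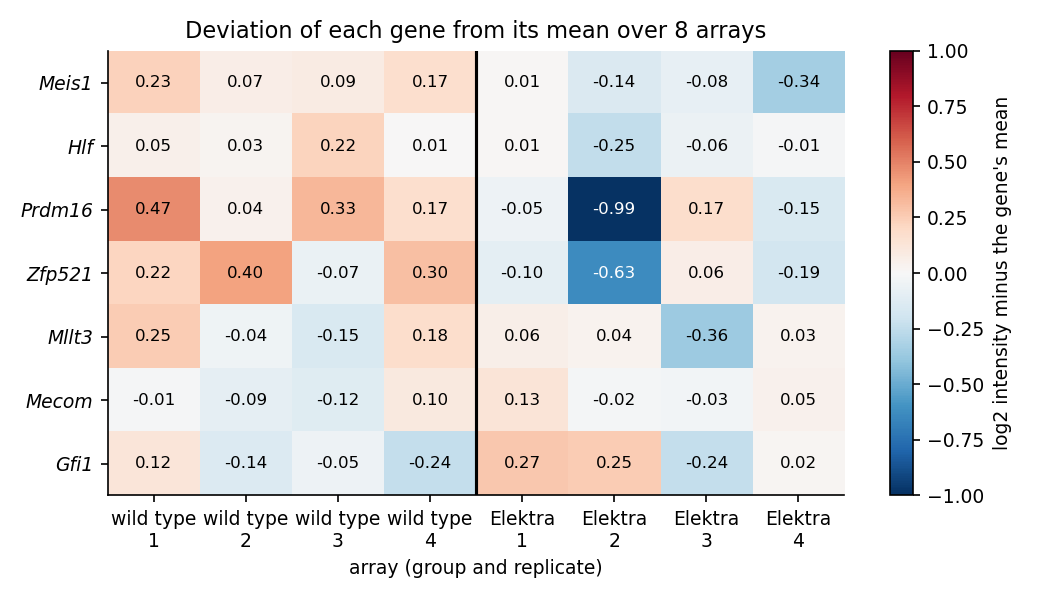
Log2 intensity of each gene (rows) on each array (columns, wild type left of the line, Elektra right) minus the gene's mean over 8 arrays. Elektra replicate 2 stands out for Prdm16 and Zfp521, Elektra replicate 4 for Meis1 and Elektra replicate 3 for Mllt3.

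Of the 21 pairs of regulators, 11 correlated positively and 10 negatively over the 8 arrays. None passed Benjamini-Hochberg adjustment over the 21 pairs by an exact permutation test (lowest adjusted p = 0.285), and for 2 the unadjusted p of Pearson's r was under 0.05. By Spearman's rho 2 other pairs had an unadjusted p under 0.05, both with Meis1. Prdm16 and Meis1 had rho = 0.79 (exact permutation p = 0.0279) and r = 0.60 (exact permutation p = 0.122), with r = 0.66 without the 2 arrays farthest for Prdm16, 0.76 without Elektra replicate 2 and 0.24 within genotypes. Hlf and Meis1 had rho = 0.74 (exact permutation p = 0.0458) and r = 0.47 (exact permutation p = 0.229), with r = 0.61 without the 2 arrays farthest for Hlf, 0.38 without Elektra replicate 2 and -0.10 within genotypes. Hlf and Prdm16 had r = 0.83 (exact permutation p = 0.0252) and rho = 0.67 (exact permutation p = 0.0831). Leaving out the 2 arrays farthest from the median of Hlf brought r to 0.37, so the relation rests on them, 1 of them being Elektra replicate 2. Prdm16 and Zfp521 had r = 0.79 (exact permutation p = 0.0271) and rho = 0.60 (exact permutation p = 0.132), and r = 0.26 without the 2 arrays farthest for Prdm16. Within genotypes, after each genotype's mean was subtracted, Hlf with Prdm16 and Prdm16 with Zfp521 had r = 0.73 and r = 0.65, and without Elektra replicate 2 they had r = 0.50 and r = 0.35. Over all 8 arrays Mecom correlated with none of the 6 others beyond r = 0.48, the value with Mllt3 (exact permutation p = 0.230 and rho = 0.71, exact permutation p = 0.0579). That pair had r = 0.36 without the 2 arrays farthest for Mecom and r = 0.69 within genotypes, and Mecom with Hlf had r = -0.56 without Elektra replicate 2 against -0.27 over all arrays.

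Likeness to single genes is given as a description, since each was picked as the best of 12148 genes over 8 arrays. The named gene most like Meis1 was Agbl5, which encodes a tubulin deglutamylase, at r = 0.98, also with quantile normalization and, at r = 0.99, without Elektra replicate 2. Prdm16 was most like the carbohydrate kinase gene Fggy (r = 0.99, and 0.97 without Elektra replicate 2). Zfp521 was most like the cohesin gene Stag2 (r = 0.98) and Hlf most like Akap10, a kinase anchoring gene (r = 0.98). For Mecom, Mllt3 and Gfi1 the closest were Dock9 (r = 0.96), Spata1 (r = 0.95) and Larp6 (r = 0.95). With quantile normalization Spata1 went to place 53 for Mllt3 (r = 0.85), Larp6 to place 14 for Gfi1 (r = 0.93) and Dock9 to place 6 for Mecom (r = 0.93). Akap10 went to place 6 for Hlf without Elektra replicate 2 (r = 0.96). The runners-up were Ttc37, Snrnp27, Nsmce2, Tbc1d5, Megf9, Cep95 and Cstb, in the order in which the regulators are named here.

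The families and partners of the regulators gave no gene past an adjusted p of 0.05 either. Over 8 lists with 105 genes, 67 had lower and 38 higher values, the median difference was -0.07, and 11 genes (10.5%) had an unadjusted limma p under 0.05, 7 of them lower. The share of all genes past that line was 5.5%, and 7.34% for genes above the median level. Lower values at any p were found for 46.1% of all genes and 54.3% of those above the median level.

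Of 24 other stem cell transcription regulators 18 were lower, with a median of -0.08. All but 1 of them lie above the median level, where 54.3% of genes were lower. Tal1, a bHLH factor at the root of blood formation, averaged 4.06 ± 0.41 over the Elektra arrays and 4.72 ± 0.07 over the wild-type arrays. The difference of -0.66 had an unadjusted limma p of 0.00415 and an adjusted p of 0.884, and was -0.46 without Elektra replicate 2. Its Elektra arrays lay between 3.45 and 4.31 and its wild-type arrays between 4.63 and 4.79, so the groups were apart. Separation in the lower direction was shown by 1.37% of all genes. Msi2, an RNA-binding protein of self-renewal, was 8.28 ± 0.21 and 8.57 ± 0.10 and was also apart, with a difference of -0.29 that was -0.18 without Elektra replicate 2. Tcf15, a bHLH factor tied to stem cell rest, lay the other way at 2.96 ± 0.24 and 2.65 ± 0.08.

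Relatives by protein family did not share one direction. Of 13 further PRDM genes 9 were higher, with a median of 0.06, opposite in sign to Prdm16. Prdm10 had separate groups, at 4.39 ± 0.08 in Elektra and 4.07 ± 0.14 in wild type, and Prdm13 was 2.22 ± 0.23 and 1.96 ± 0.10. Among the bZIP relatives of Hlf, the differences of Tef and Dbp were -0.20 and -0.10 and that of the repressor gene Nfil3 was 0.21. Of 10 TALE genes 7 were lower (median -0.07), and those with the smallest p-values were Pknox1 at 0.40, Meis3 at 0.22 and Pbx4 at -0.18. None of the TALE or bZIP genes had an unadjusted limma p below 0.0780.

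The median differences of the cofactor lists were small and below 0, as was that of all genes above the median level, of which 54.3% were lower. Of 19 partners of Mllt3 in elongation and histone methylation, 12 were lower (median -0.09). Dot1l, the H3K79 methyltransferase that Mllt3 recruits, averaged 5.23 ± 0.13 over Elektra arrays against 5.45 ± 0.09 over wild-type arrays, with separate groups and an unadjusted limma p of 0.0482, or 0.112 without Elektra replicate 2. Aff3 (-0.20) and the dim Ell3 (0.25) were the other named differences on that list. Of 14 corepressors that Gfi1, Mecom or Prdm16 are known to use, 11 were lower (median -0.11). Suv39h1, an H3K9 methyltransferase, was 4.77 ± 0.33 and 5.23 ± 0.13, followed by differences of -0.35 for the deacetylase gene Hdac2 and -0.20 for Sin3a. The 8 relatives and partners of Zfp521 differed by at most 0.13 in size (median -0.05), with Rbbp4 at -0.13, Ebf3 at 0.11 and Chd4 at -0.07.

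Genes reported as targets of the regulators were 12 lower and 6 higher of 18, with a median of -0.08. Flt3, the cytokine receptor gene linked to Meis1, was lower in each Elektra array (6.94 to 7.31) than in any wild-type array (7.36 to 7.49). It is also on the list of sort markers, and its adjusted p by limma was 0.884. Hgf, reported downstream of Prdm16, was 4.89 ± 0.24 and 5.32 ± 0.19. Id1, an inhibitor of bHLH factors, was dim and lay the other way at 2.04 ± 0.14 and 1.70 ± 0.19.

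**Figure D4:**
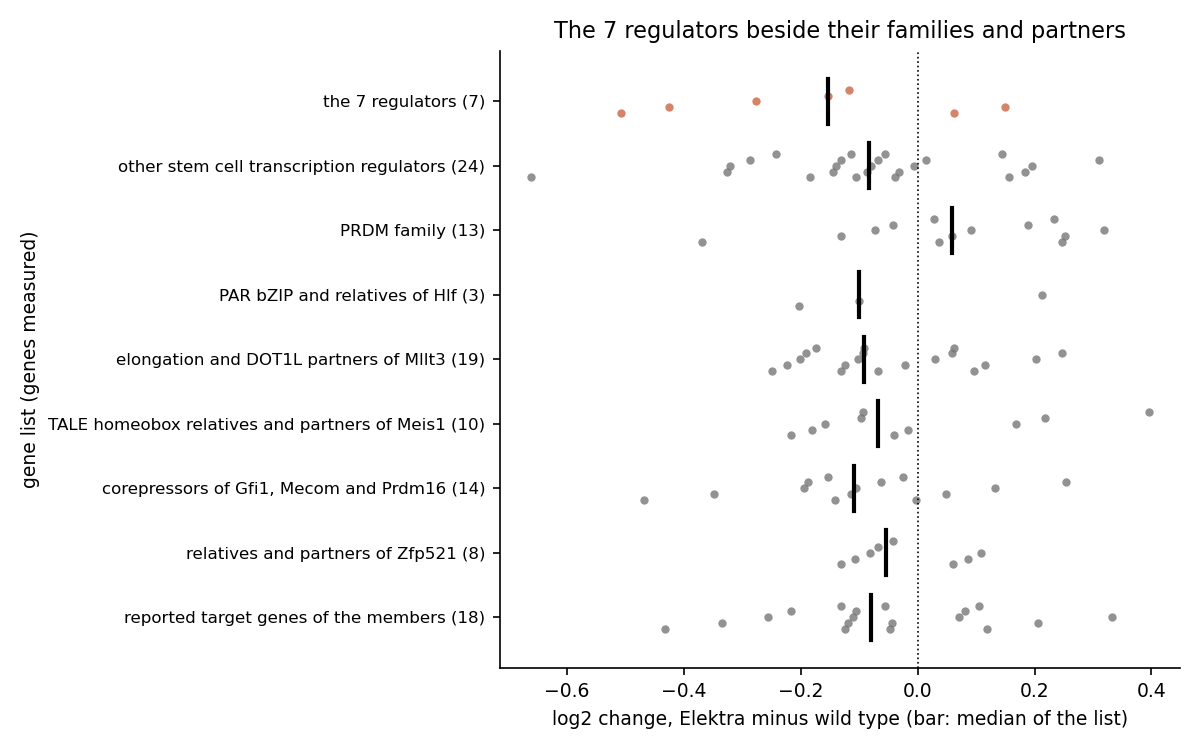
Log2 difference between genotypes (horizontal axis) of each gene in the 7 regulators (orange) and in 8 lists of relatives and partners (grey), with the median of each list as a black bar and the number of genes measured in brackets. The medians lie between -0.15 (the 7 regulators) and 0.06 (PRDM family), and single genes spread to both sides of 0.

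Markers of neighbouring cell types differed by genotype to different degrees, none past an adjusted p of 0.05. The counts below are a description and carry no test. Beside them, 46.1% of all genes and 54.3% of genes above the median level were lower in Elektra at any p. Of 12 surface and signalling markers of long-term stem cells 10 were lower in Elektra (median -0.17), and their mean level was 4.44 to 4.79 over Elektra arrays and 4.72 to 4.80 over wild-type arrays. The lowest of these means were Elektra replicates 2 and 3. Tek, a receptor gene of the angiopoietins, lay between 2.51 and 3.57 in Elektra and between 3.14 and 4.23 in wild type, so its groups overlapped. Granulocyte-monocyte progenitor markers were higher for 6 of 7 (median 0.19), with mean levels of 2.60 to 3.40 in Elektra and 2.66 to 3.36 in wild type. Megakaryocyte and erythroid markers were higher for 5 of 8 (median 0.13), with means of 3.54 to 3.89 and 3.46 to 3.71. Car1, the carbonic anhydrase gene on that list, had the widest difference there, 0.77 at an unadjusted limma p of 0.0434, with overlapping groups. Lymphoid progenitor markers were lower for 4 of 6 (median -0.06). One of them, the chromatin organizer gene Satb1, lay between 3.86 and 4.37 in Elektra and between 4.55 and 4.99 in wild type, a difference of -0.58 at an unadjusted limma p of 0.00182 and an adjusted p of 0.884. B and plasma cell markers were lower for 4 of 7 (median -0.02) and macrophage and neutrophil markers for 6 of 8 (median -0.16). T and NK cell markers were higher for 3 of 5 (median 0.14), and mast cell and niche markers each for 4 of 5 (medians 0.18 and 0.03). The part of the makeup of the sorted cells in the lower readings of Meis1, Prdm16 and Zfp521 was not tested.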

How the data were processed

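The deposited values are log2 intensities. The submitters' processing notes name RMA and Affymetrix Expression Console 1.4 as the tools by which the authors made them. RNA (100 to 200 pg) was amplified with 12 PCR cycles, per the labels' protocols. The deposited annotated table (34390 probe sets) also holds the authors' log2 ratios, signed fold changes (a quantity with no fixed unit) and p-values; those p-values equalled a pooled-variance test of the deposited log2 values to within 2.88e-12. A single symbol was given for 31872 of them and none for 2517. The annotated table was the input, and the series table of the same arrays (median difference 0.0607) an alternative.

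Each gene kept its brightest probe set, with no filter on dim ones. The 2 genotypes were compared with limma 3.58.1 (lmFit, eBayes; R 4.3.3) by two-sided tests. P-values were adjusted by Benjamini-Hochberg over 30918 genes, with a threshold of 0.05. The procedure was tested on simulated data. Pairs were tested by exact permutation of the arrays (40320 orders). The number of arrays limits the precision. Nothing says whether samples numbered alike share a litter: their deviations from the group means correlated at 0.135, 0.0106, 0.134 and 0.0550, so the number was not treated as a pairing. The regulators and lists were chosen with earlier results of these data known. Besides them and the sort markers, the genes named are the 3 of smallest p in each list of relatives and partners (some are not reported here), and the 2 bright genes with a function name most like each regulator; Tek, Satb1, Car1 and Igh-V11 were named after their values were seen. Promoter windows come from RefSeq. The arrays' genome build is not stated in the labels or headers. The alternatives were quantile normalization, median centring, a filter on dim genes (40th percentile), averaged or single probe sets, the series table, array weights, a robust prior with an intensity trend, a replicate block, an adjusted p of 0.10, a pooled-variance test, and leaving out each array, the 2 with immunoglobulin signal, or those 2 and Elektra replicate 2.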

Additional observations from a re-analysis of the deposited data

Results flagged for a closer look

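Among 37 genes in 2 groups of 4 arrays, 74 groups in all, 5 readings stood far from the other 3 of their group. Chance marks about 1 group in 20, so the count is close to that rate and the readings are listed as a description. Mllt3 was 6.39 in Elektra replicate 3 against 6.79 to 6.81 in the other Elektra arrays. Tal1 was 3.45 in Elektra replicate 2 against 4.19 to 4.31. Aff3 was 6.69 in Elektra replicate 1 against 6.36 to 6.39. Ell3 was 1.13 in wild type replicate 2 against 1.34 to 1.38, and Ebf3 was 2.18 in wild type replicate 1 against 2.30 in the other 3.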

How the results depend on the processing

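No gene passed limma at an adjusted p of 0.05 in any of the 21 alternatives, nor at the looser 0.10, with 1062 (dim genes left out) to 2115 (without Elektra replicate 1) at an unadjusted p under 0.05; the pooled-variance test gave 0 and 1572. With median centring 452 of 1725 such genes were higher, against 814 of 1702 as reported. The median of the 7 regulators lay between -0.19 and -0.10 throughout, with 4 to 6 of them lower. Of 133 refitted values of single regulators 130 kept their sign. Part of this was fixed beforehand. The intensity trend with robust prior, the replicate block and the filter on dim genes leave each difference unchanged. Averaging probe sets could change only Mecom, which turned to -0.0867. Mllt3 turned to 0.0231 without the 2 arrays with immunoglobulin signal and to 0.0257 without these and Elektra replicate 2. On leaving out each array, Meis1 ranged from -0.33 to -0.21, Zfp521 from -0.52 to -0.29, and Prdm16 from -0.65 (without Elektra replicate 3) to -0.26 (without Elektra replicate 2). Slfn2 turned to -0.0166 with quantile normalization and -0.0197 with median centring. On leaving out each array Slfn2 ranged from -0.113 to 0.138 and Cd34 from -0.101 to 0.0234. With the replicate block the adjusted count stayed 0 (1880 at an unadjusted p under 0.05), and no pair of regulators passed in any refit. For pairs, the replicate block and the fit without 3 arrays, which leaves 5, were not run.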
